A study of Mus musculus and Homo sapiens
Mus musculus with 12 samples.

Results

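The comparison set 2 libraries of nuclei from frozen mouse brain (No_index_frozen) against 2 libraries of nuclei from fresh mouse brain (No_index_fresh). All 4 were made with a reverse transcription primer that carried no preindex. The libraries were chosen by their titles, and they are 4 of the 12 samples and of the 7 brain libraries of the series. Fresh brain was the baseline throughout, so a positive log2 fold change means a higher level in frozen brain. The method, snHH-seq, is a droplet method that captures total RNA of single nuclei with random primers, so RNA without a poly(A) tail is also read. The series used its brain libraries to compare storage and primer design.

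According to the methods of the study, the brains came from wild-type C57BL/6J males that were young adults. The number of animals behind a library is not stated, so the p-values measure the spread between libraries, which may be technical. In all 4 libraries tissue was broken in liquid nitrogen and nuclei were fixed with paraformaldehyde, and the storage labels are fresh and frozen only. A further label of the fresh libraries names a primer with a preindex-type barcode, against their titles. The barcodes in the files are 30 bases long in all 4 libraries, which goes with the titles.

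The fresh libraries held 1000 and 1300 nuclei with 24750188 and 42439731 UFIs. A UFI, or unique fragment identifier, counts each captured cDNA fragment 1 time. The frozen libraries held 700 and 800 nuclei with 8605214 and 14730649 UFIs. The median nucleus had 21127 and 27543 UFIs in fresh brain and 10187 and 15385 in frozen brain. Depth and storage therefore cannot be told apart in the design, and an exact permutation test over the 6 splits of 2 against 2 libraries cannot give a two-sided p below 0.333. Thinned to 3000 UFIs, the median nucleus showed 1506 and 1525 genes in fresh brain and 1459 and 1483 in frozen brain. The libraries shared between 3 and 10 cell barcodes per pair. A list of kidney tubule genes, which are abundant in some preindexed brain libraries, summed to between 17.1 and 19.9 CPM here, where CPM is the count scaled to a library total of 1000000, and 1 nucleus of 3800 had 10 or more of their UFIs. Liver genes summed to between 1.43 and 2.17 CPM.

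Neurons and glia form the bulk of the brain, and nuclei hold mostly unspliced precursor RNA of their genes together with RNAs that work in the nucleus. Among the latter are the small nuclear RNAs (snRNAs) U1, U2, U4, U5 and U6, which build the spliceosome and have no poly(A) tail. Transcripts of the mitochondrial genome are made and used in mitochondria, so in a nuclei preparation they come from cytoplasmic material that stays with the nuclei. Genes that mark brain regions and cell types report which cells entered a library.

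In edgeR's quasi-likelihood test on the UFI sums of all nuclei, 630 of 16493 genes passed a Benjamini-Hochberg threshold of 0.05, of which 340 were higher and 290 lower in frozen brain. These are 2.06% and 1.76% of the genes tested. The median log2 fold change over all genes was 0.00 to 2 decimals, and 131 of the called genes differed by more than 2-fold. The fresh and frozen libraries did not overlap for 7879 of the 16493 genes, among them all 630 called, so this adds little to a call. Mitochondrial transcripts rose, snRNA genes fell, and markers of single brain regions went both ways.

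Of the snRNA genes that fell, 4 are printed here because snRNA copies are so alike that reads can be shared between them, and they carry only part of the decrease. Gm24265 and Gm24407 are neighbouring U4-like genes on mouse build GRCm38 (GENCODE M21), at chr5:115489459-115489599 and chr5:115490254-115490394 on the plus strand. Capitals mark where Gm24407 differs from Gm24265.

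Gm24265: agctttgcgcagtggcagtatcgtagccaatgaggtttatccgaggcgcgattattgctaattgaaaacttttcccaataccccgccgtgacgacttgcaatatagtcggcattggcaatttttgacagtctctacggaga
Gm24407: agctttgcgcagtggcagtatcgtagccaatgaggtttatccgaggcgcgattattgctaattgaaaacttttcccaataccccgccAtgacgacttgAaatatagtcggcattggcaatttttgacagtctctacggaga

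Gm22513, at chr12:54696782-54696945 on the plus strand, is the U1-like gene with the most UFIs and was chosen for display after its values had been seen, and Gm23511, at chr3:48954722-48954885 on the plus strand, is a U1 variant. Capitals mark bases that differ from the annotated U1 gene Rnu1a1. Gm22513 is 99.4% identical to Rnu1a1 and has 21 annotated copies of at least 95% identity, and Gm23511 is 94.5% identical and has 0 such copies.

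Gm22513: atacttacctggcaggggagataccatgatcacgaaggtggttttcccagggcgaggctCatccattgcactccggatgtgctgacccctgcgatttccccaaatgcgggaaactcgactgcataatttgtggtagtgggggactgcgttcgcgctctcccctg
Gm23511: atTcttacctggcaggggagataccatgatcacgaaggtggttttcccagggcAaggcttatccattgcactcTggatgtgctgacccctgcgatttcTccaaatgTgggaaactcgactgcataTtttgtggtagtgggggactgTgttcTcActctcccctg

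Genes annotated as snRNA gave 575 and 697 CPM of all UFIs in the fresh libraries and 319 and 342 in the frozen ones. Both frozen libraries lay below both fresh libraries, at 0.519 of the fresh mean. Of 163 snRNA genes tested in all nuclei, 30 were lower and 1 was higher in frozen brain. This grouping was made after the values had been seen, and 93.3% of the 163 had a negative log2 fold change, against 50.8% of all genes tested. Their median was -0.94. The filter on low counts keeps a gene that clears it in the libraries of 1 group alone. Some low snRNA genes, called ones among them, entered through fresh brain only. The share of negative values and the median are thus partly set by the filter. The summed snRNA shares cover all snRNA genes and do not depend on it. The mean nucleus held 14.2 and 22.8 snRNA UFIs in fresh brain and 3.92 and 6.30 in frozen brain.

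Gm24265 stood at 47.5 and 55.7 CPM in fresh brain and at 20.6 and 21.5 CPM in frozen brain. Both fresh values were above both frozen values, with a log2 fold change of -1.30 ± 0.09 (SE) and an adjusted p of 9.26e-06 in edgeR. Its neighbour Gm24407 had 34.8 and 39.8 CPM in fresh brain and 16.9 and 18.6 CPM in frozen brain, a log2 fold change of -1.07. U4 pairs with U6 when the spliceosome is assembled. The 4 U4-like genes together gave 86.5 and 101 CPM in fresh brain and 41.6 and 41.7 CPM in frozen brain.

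U1 is the snRNA that recognizes the 5′ splice site. Gm22513 had 125 and 134 CPM in fresh brain and 70.4 and 74.3 CPM in frozen brain, so the log2 fold change was -0.84, with 1.39e-05 as adjusted p in edgeR. The variant Gm23511 had 12.8 and 19.6 CPM in fresh brain against 6.51 and 6.66 CPM in frozen brain, a log2 fold change of -1.32. The fresh libraries were above the frozen ones for both. Of 14 U1-like genes tested, all at 80% identity or more to an annotated U1 gene, 9 were lower and the other 5 had negative values that did not pass. The filter on low counts partly sets these numbers. Gm24136, among the 9, had 2.53 and 2.39 CPM in fresh and 0.121 and 0.476 CPM in frozen brain.

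U6 forms part of the catalytic core of the spliceosome. Of 102 U6-like genes 13 were lower and 0 were higher, with sums of 158 and 194 CPM in fresh brain and 89.6 and 94.3 CPM in frozen brain. Of these 102 genes 97 had a negative log2 fold change, a number that the filter on low counts partly sets. The study's methods for tissue keep uniquely mapped reads only, so reads that fit more than 1 copy equally are left out. The family sums cover only reads placed at a single copy and are not totals of a family. Rnu11, the U11 snRNA of the minor spliceosome, was also lower, at -0.89 on the log2 scale with 0.0120 as adjusted p in edgeR. The single gene that was higher, Gm25099, is U5-like, and its call (log2 fold change 1.37, edgeR's adjusted p 0.0445) was lost when any 1 of the 4 libraries was left out. It is named after its value was seen.

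Other short noncoding RNAs were mixed. Rmrp, the RNA of the RNase MRP complex, had 20.4 and 22.6 CPM in fresh brain and 11.1 and 14.2 CPM in frozen brain, which gave -0.74 on the log2 scale and 0.00365 as adjusted p in edgeR. Rn7sk, which holds the elongation factor P-TEFb inactive, had a log2 fold change of 0.16 and did not pass. Among 589 tested genes that span more than 300000 bases of the genome, 57 were higher and 23 lower, with a median log2 fold change of 0.03. Over all genes tested 2.06% were higher and 1.76% lower. Of 7395 genes that span 3000 to 30000 bases, 60 were higher and 83 lower, with a median of -0.02. The part of gene length in these calls was not tested.

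**Figure D1:**
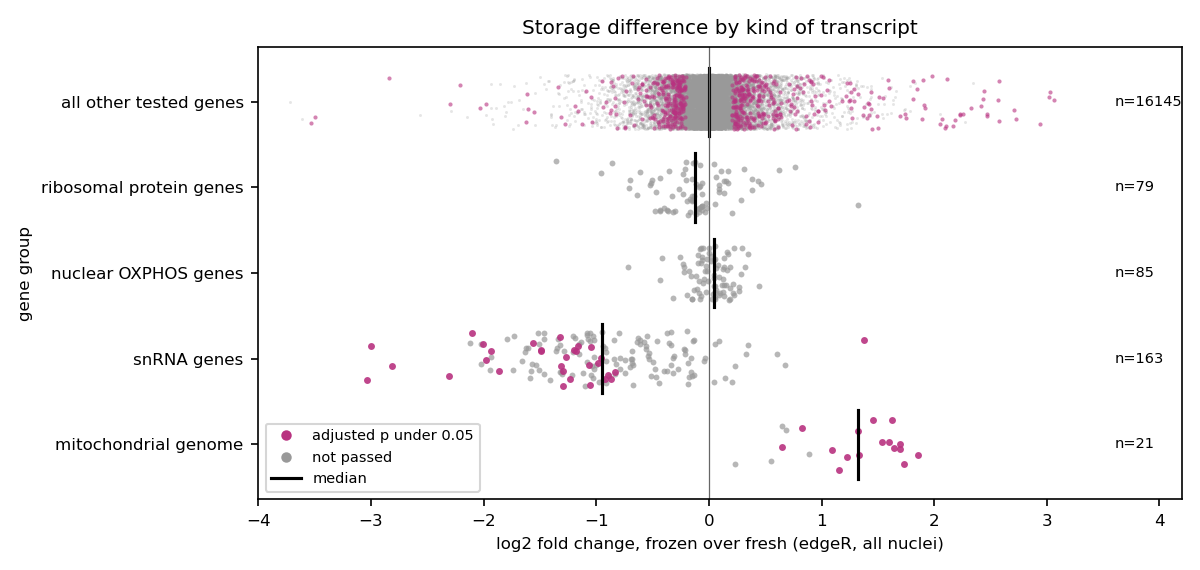
Log2 fold change of frozen over fresh brain in all nuclei (x axis) for 5 groups of genes, 1 point per gene, with genes past an adjusted p of 0.05 in colour and a bar at each median. The 21 mitochondrial genes lie above 0 with a median of 1.32 and most of the 163 snRNA genes below 0, whereas the medians of 85 nuclear oxidative phosphorylation genes and 79 ribosomal protein genes lie at 0.04 and -0.12.

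Transcripts of the mitochondrial genome took 0.388% and 0.373% of UFIs in the fresh libraries and 1.23% and 1.07% in the frozen ones. The frozen libraries were both higher, at 3.03 times the fresh mean. Of 32 mitochondrial genes in the files 21 passed the filter on low counts, of which 16 were higher and 0 lower, with a median log2 fold change of 1.32. The 5 others tested (mt-Nd6, mt-Tc, mt-Ti, mt-Tp and mt-Tr) had positive values from 0.24 to 0.89 that did not pass. Among the 11 genes that were not tested, the protein-coding mt-Atp6, mt-Co2, mt-Co3, mt-Nd3 and mt-Nd4l had between 0 and 23 UFIs over all 4 libraries.

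The 12S and 16S ribosomal RNAs of mitochondria, mt-Rnr1 and mt-Rnr2, carried most of this RNA. mt-Rnr1 had 1976 and 1838 CPM in fresh brain and 6781 and 5571 CPM in frozen brain, a log2 fold change of 1.70 ± 0.08 (SE, adjusted p = 4.86e-07 in edgeR). mt-Rnr2 had a log2 fold change of 1.60. The groups did not overlap for either.

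The messenger RNAs of the respiratory chain rose by like amounts. mt-Nd4, a complex I subunit, had 60.6 and 60.8 CPM in fresh brain and 230 and 212 CPM in frozen brain, a log2 fold change of 1.86 ± 0.06 (SE, adjusted p = 3.36e-08 in edgeR). The complex I subunits mt-Nd1, mt-Nd2 and mt-Nd5 had log2 fold changes of 1.74, 1.63 and 1.64, mt-Co1 of complex IV had 1.70 and mt-Cytb of complex III had 1.46. Nuclear genes for the same complexes did not move with them: 0 of 85 nuclear oxidative phosphorylation genes passed in edgeR or in DESeq2, 8 had an unadjusted p under 0.05 in edgeR, and their median was 0.04.

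The difference was present in the ordinary nucleus as well as in the sums. The median nucleus had a mitochondrial share of 0.233% and 0.243% in fresh brain and of 0.683% and 0.667% in frozen brain. Nuclei with more than 5% mitochondrial UFIs were 0.6% and 0.462% of fresh and 4.86% and 4.13% of frozen nuclei. In absolute terms the median nucleus held 52 and 70 mitochondrial UFIs in fresh brain and 80 and 111 in frozen brain, so the frozen values were higher although the nuclei held fewer UFIs in all.

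Within nuclei of 10000 to 20000 UFIs, a window chosen after the data had been seen, the mitochondrial share was 0.494% and 0.552% in fresh brain and 1.01% and 1.10% in frozen brain. The frozen mean was 2.02 times the fresh mean there, less than over all nuclei. A gap in depth remained inside the window, with medians of 14901 and 17590 UFIs in fresh and 12721 and 13755 in frozen brain. In the same window snRNA genes gave 592 and 673 CPM in fresh brain and 329 and 365 in frozen brain, 0.548 of the fresh mean. The edgeR test on these nuclei called 10 mitochondrial genes higher and 5 snRNA genes lower.

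Clustering of the 3800 nuclei gave 25 clusters, which were named only from fixed marker lists. Of these nuclei 3131 were neuron-like, 154 oligodendrocyte-like, 102 astrocyte-like, 27 endothelial-like and 26 fibroblast- and meningeal-like, and 360 stayed unnamed. The oligodendrocyte-like cluster had all 7 markers of oligodendrocyte precursor cells at least 2-fold above the other clusters too, and no cluster of precursors could be named. Of the unnamed nuclei, 191 lay in a cluster led by Sst, Eya4 and Sox6 that had all 7 inhibitory neuron markers at least 2-fold raised, and it stayed unnamed because Sox6 is also on the precursor list. Another 91 lay in a cluster led by Inpp5d, 37 in one led by Pax2 and Tfap2b with 4 inhibitory markers raised, 34 in one led by Car8 and 7 in one led by Ebf2. The shares and tests of neuron-like nuclei leave all of these out. Among the 18 clusters with at least 10 nuclei from each library, both frozen libraries had a higher mitochondrial share than both fresh libraries in all 18. The ratio of means ran from 1.80 to 4.83. Over the 23 clusters with nuclei from every library this held in 19, the libraries overlapped in 4, and the lowest ratio was 0.837. The snRNA share was lower in both frozen libraries in all 18 clusters, with ratios from 0.403 to 0.639, and in all 23, with ratios from 0.329 to 0.678.

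**Figure D2:**
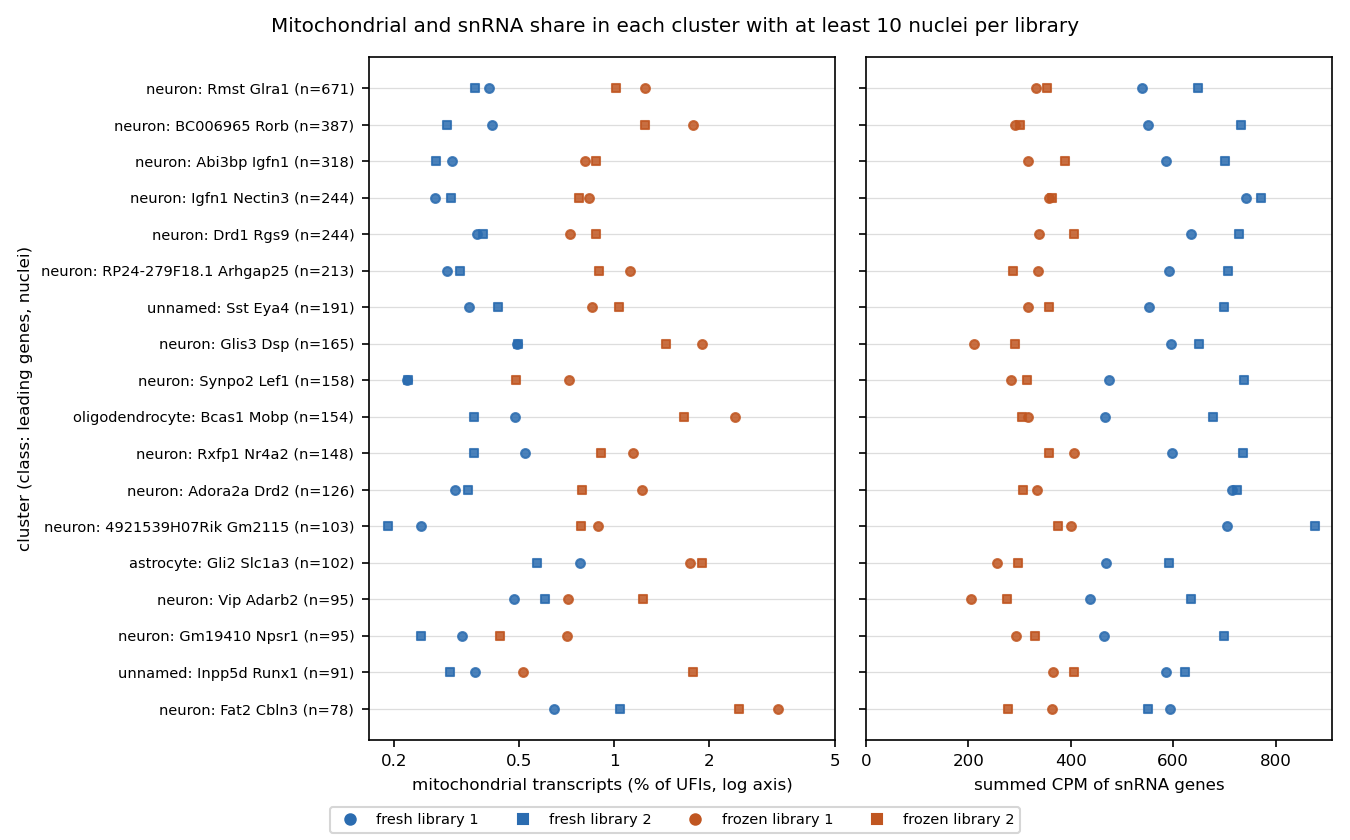
Mitochondrial share (percent of UFIs, log axis, left) and summed CPM of snRNA genes (right) for each cluster with at least 10 nuclei per library, 1 point per library. In each of the 18 clusters both frozen libraries (orange) lie to the right of both fresh libraries (blue) on the left and to their left on the right.

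The preindexed brain libraries were set beside these values without a test, since only 1 fresh library was among them and some of their nuclei carry kidney or liver transcripts. Each of them also held 0 nuclei with at least 3 UFIs of both Fat2 and Cbln3, genes of cerebellar granule cells. The cell make-up of the preindexed libraries may thus differ, which was not tested. Their mitochondrial share was 0.595% in the fresh library and 0.772% and 0.769% in the frozen ones, the same order with a smaller gap. Their snRNA share was 830 CPM in the fresh library and 960 and 928 in the frozen ones, the opposite order. Gm24265 nevertheless stood at 107 CPM in the preindexed fresh library and at 49.7 and 49.6 CPM in the frozen ones. Gm23511 was at 4.39 CPM and at 3.84 and 4.37 CPM.

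Neuron-like nuclei were 85.4% and 82.0% of the fresh libraries and 81.1% and 80.4% of the frozen ones, without overlap. Glia-like nuclei, taken as the astrocyte- and oligodendrocyte-like clusters, were 5.70% and 7.15% of the fresh and 7.14% and 7.00% of the frozen libraries, so their ranges met. The exact permutation p-values were 0.333 and 1.00, and since 0.333 is the smallest this design can give, the test says nothing on the neuron-like share. The neuron-like shares did overlap with 20 principal components, at 87.4% and 83.8% in fresh and 85.7% and 82.8% in frozen brain. They also overlapped at resolution 1.2 and with expression centred per library. The cluster led by Inpp5d, Runx1 and Dock2 had 7 of 8 microglia markers at least 2-fold raised, and it stayed unnamed because 8 of 10 neuron markers were above their mean over clusters in it. It held 23 and 28 fresh and 23 and 17 frozen nuclei. The microglia list summed to 144 and 162 CPM in fresh and 157 and 163 CPM in frozen brain over all nuclei, with 0 of 8 members called by edgeR or DESeq2 and 0 at an unadjusted p under 0.05.

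Finer clusters were less even. The share in 6 of the 25 clusters differed at least 2-fold between the group means without overlap of the libraries. Shares did not overlap in 16 of the 25 clusters, so the lack of overlap alone adds little. The cluster led by Prdm16, Ano1 and Myo5b held 36 and 36 fresh nuclei and 0 and 0 frozen nuclei. A count of 0 allows a share of up to 0.429% and 0.375% of nuclei in the frozen libraries, whereas the fresh shares were 3.6% and 2.77%, and these limits cover counting error only. The unnamed cluster led by Car8 held 1 and 6 fresh nuclei and 14 and 13 frozen nuclei. The granule-like neuron cluster led by Fat2, Cbln3 and Gabra6 made up 1.40% and 1.38% of fresh and 2.71% and 3.38% of frozen nuclei.

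Pairs of leading genes were also counted in single nuclei, without the clustering. Nuclei with at least 3 UFIs of both Prdm16 and Ano1 numbered 25 and 28 in fresh brain and 0 and 0 in frozen brain. The preindexed frozen libraries did hold such nuclei, 40 of 2300 and 34 of 1998, and the preindexed fresh library held 14 of 3100. Nuclei with at least 3 UFIs of both Car8 and Atp2a3 numbered 1 and 7 in fresh brain and 14 and 13 in frozen brain, and 0 in each of the 3 preindexed libraries. For Fat2 and Cbln3 of the granule-like cluster the groups overlapped, with 3.9% and 4.46% of fresh and 3.43% and 7.63% of frozen nuclei. The 3 preindexed libraries held 0 such nuclei each. These pairs were chosen after the clusters had been seen. The cut of 3 UFIs was the same for all nuclei. Nuclei of frozen brain held fewer UFIs and so reach it less readily, and the counts were not adjusted for depth.

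**Figure D3:**
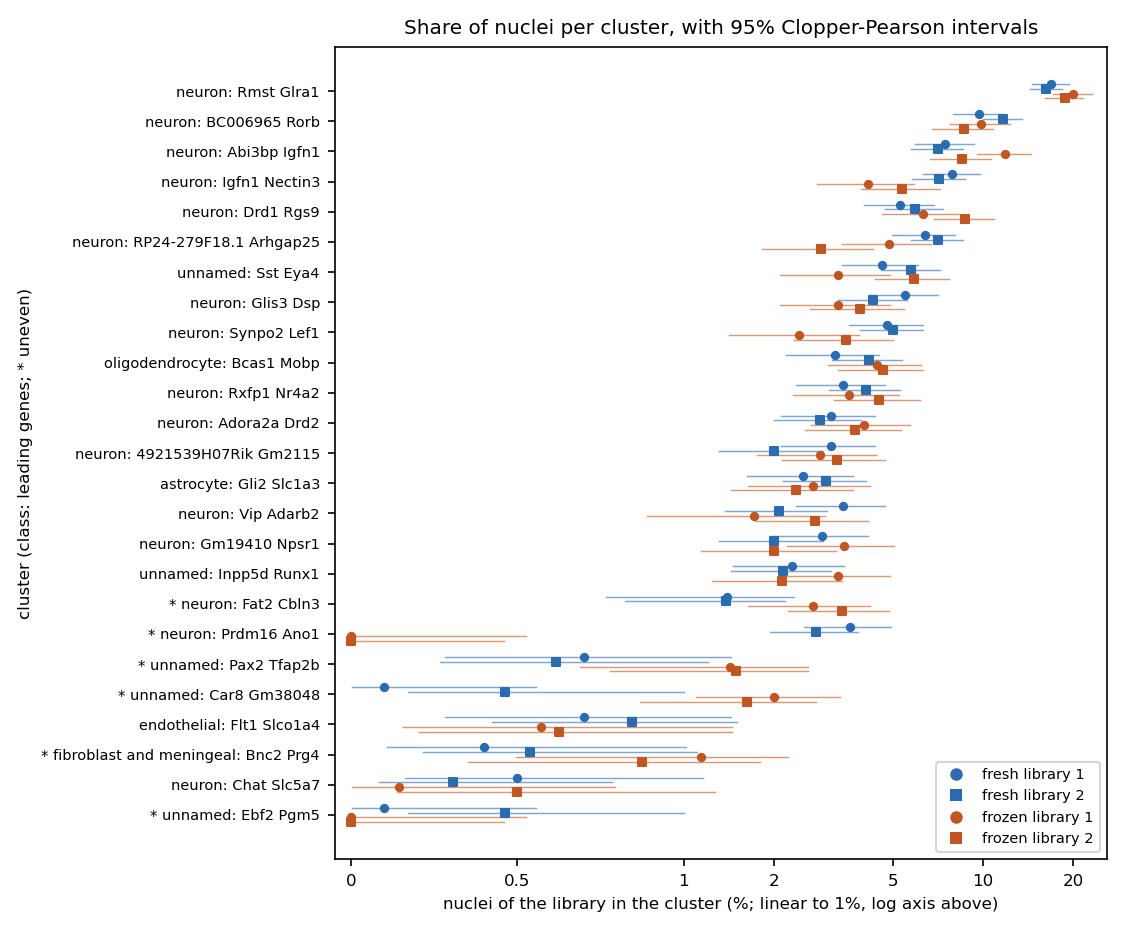
Share of each library's nuclei (x axis, percent, linear up to 1% and log above) in each of the 25 clusters, with exact 95% intervals for counting error. Stars mark the 6 uneven clusters, among them the Prdm16 cluster with 0 frozen nuclei and the Car8 cluster with 27 of its 34 nuclei from frozen brain.

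These clusters carried most of the largest fold changes among called genes of at least 10 CPM. In bulk sums fewer cells of a type and less RNA per cell cannot be told apart. Car8, a carbonic anhydrase-related protein and a marker of cerebellar Purkinje cells, had 13.1 and 21.04 CPM in fresh brain and 167 and 107 CPM in frozen brain, a log2 fold change of 2.94 ± 0.21 (SE, adjusted p = 1.05e-05 in edgeR). Of its UFIs, 62.3% and 73.9% in fresh and 94.9% and 91.5% in frozen brain came from the uneven clusters. With the same number of nuclei drawn per cluster, 635 per library in all, its log2 fold change was 0.57. The draw took the smallest count of each cluster over the libraries. It thus kept 1 nucleus of the Car8 cluster per library and 0 of the Prdm16 cluster. Car8 did not pass there (adjusted p = 0.172 in edgeR). Without the uneven clusters, chosen after the data had been seen, it had 0.79 and passed (adjusted p = 0.0206 in edgeR).

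Zfp385c, Gm38048, 9630028H03Rik, Atp2a3 (a calcium pump of the endoplasmic reticulum), Arhgef33 and Col18a1 (a basement membrane collagen) were highest in the same Car8 cluster. Their log2 fold changes in all nuclei ran from 1.74 to 2.57. With equal numbers per cluster they fell between -0.47 and 0.40, and none passed. Gm38048, 9630028H03Rik, Arhgef33 and Col18a1 turned negative. That draw left 1 nucleus of the Car8 cluster per library, so the loss was largely set in advance and the signs say little. None of these genes passed without the uneven clusters either, which include the Car8 cluster itself. Among the 6 Purkinje markers 6 were higher in all nuclei and 1 of the 4 tested was higher in neuron-like nuclei, a class that did not include the Car8 cluster. Itpr1, the inositol trisphosphate receptor that Purkinje cells express strongly, had a log2 fold change of 0.71 in all nuclei and of -0.13 in neuron-like nuclei, where it did not pass.

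Ano1, a calcium-activated chloride channel, had 20.7 and 20.5 CPM in fresh brain and 5.31 and 5.16 CPM in frozen brain, a log2 fold change of -1.98 ± 0.11 (SE, adjusted p = 2.27e-06 in edgeR). Prdm16, a transcriptional regulator, had 47.3 and 40.6 CPM in fresh brain and 15.7 and 13.5 CPM in frozen brain, a log2 fold change of -1.61. Both were lower in both frozen libraries, and both were highest in the Prdm16 cluster. The preindexed libraries had the opposite order, which was not tested. Ano1 was at 12.9 CPM in the preindexed fresh library and at 23.4 and 18.6 CPM in the frozen ones. Prdm16 was at 15.2 CPM and at 84.0 and 72.8 CPM. Some nuclei of those libraries carry kidney or liver transcripts. With equal numbers per cluster Ano1 stayed lower at -1.20 (edgeR's adjusted p 0.00642) and Prdm16 had -0.46 and did not pass. In neuron-like nuclei that draw turned Prdm16 from -2.11 to 0.12. It held 0 nuclei of the Prdm16 cluster, so this turn was largely set by the draw. Without the uneven clusters Ano1 had -0.75 and Prdm16 -0.53 in all nuclei, and both passed (edgeR's adjusted p 0.0466 and 0.0330). In neuron-like nuclei Prdm16 had 0.16 without those clusters, which include the Prdm16 cluster, and did not pass.

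Of the other genes among the most decreased, Cpa6, a carboxypeptidase, fell by 1.13 on the log2 scale and was still called at -0.69 with equal numbers per cluster. The noncoding Gm29478 fell by 1.04, but with equal numbers per cluster it had -0.37 and did not pass (edgeR's adjusted p 0.436). It had -0.82 and passed without the uneven clusters (edgeR's adjusted p 0.0116). Gm44511 had 105 and 70.9 CPM in fresh brain and 34.1 and 34.9 CPM in frozen brain. Its log2 fold change of -1.34 was -1.39 with equal numbers per cluster and -1.35 without the uneven clusters. The part of the clusters in it was not tested.

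**Figure D4:**
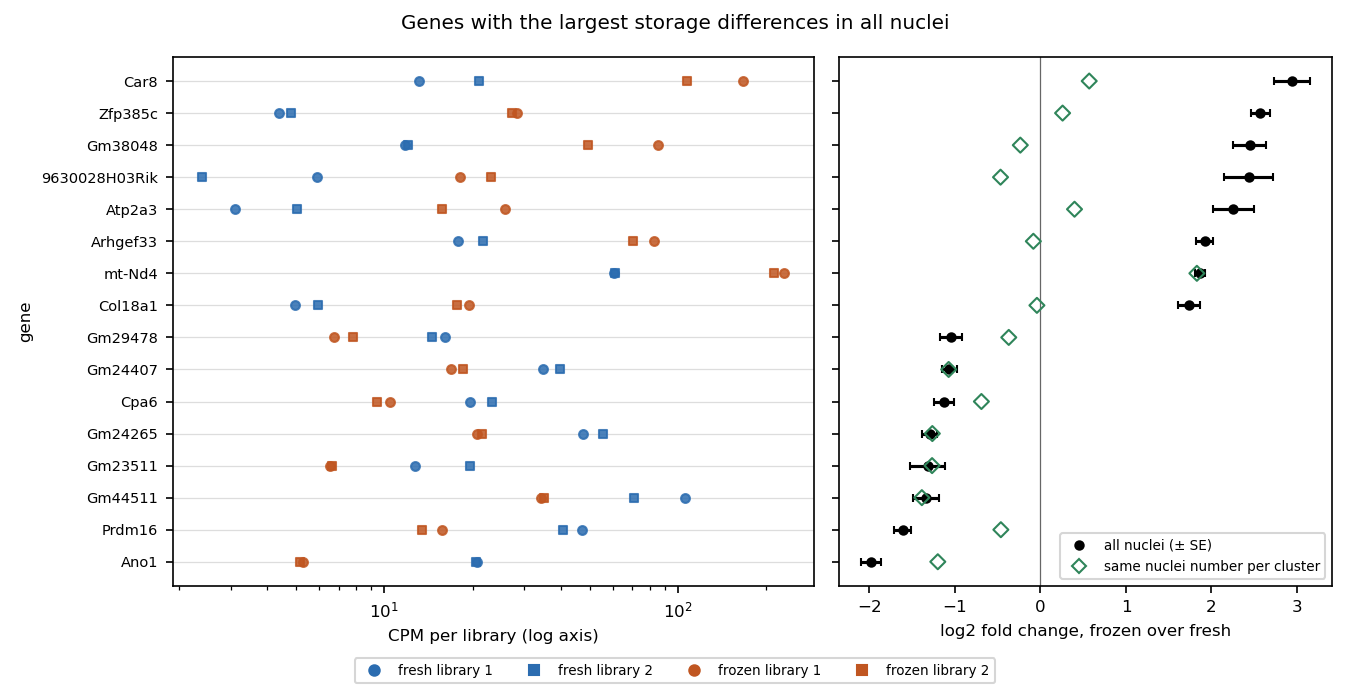
CPM in each of the 4 libraries (left, log axis) and log2 fold change in all nuclei with its SE (right, black) for the called genes of at least 10 CPM with the largest differences. Open diamonds give the log2 fold change with the same number of nuclei per cluster, which lies near 0 for the genes of the Car8 cluster and on the full value for mt-Nd4 and the snRNA genes. That draw held 1 nucleus of the Car8 cluster per library.

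In neuron-like nuclei 186 of 15667 genes were higher and 206 lower, 1.19% and 1.31% of those tested. Among called genes of at least 10 CPM the 8 most increased there were all mitochondrial, led by mt-Nd4 at a log2 fold change of 1.87. Of 149 snRNA genes 19 were lower and 0 higher, numbers that the filter on low counts partly sets. The list of general neuron markers had 0 of 10 members called by edgeR or DESeq2, and 4 had an unadjusted p under 0.05 in edgeR. Regional markers moved: 5 of 8 cerebellar granule markers and 4 of 8 striatal projection neuron markers were higher, and 3 of 7 thalamus markers were lower.

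Fat2, an adhesion protein of cerebellar granule cells, had 33.5 and 34.8 CPM in fresh and 86.9 and 90.3 CPM in frozen neuron-like nuclei, a log2 fold change of 1.38 ± 0.06 (SE, adjusted p = 2.03e-07 in edgeR). Cbln3 and Il16, markers of the same cells, had 1.15 and 1.15. With equal numbers per cluster these 3 kept values of 0.73, 0.64 and 0.74, and all 3 passed. Among the striatal markers Rarb, a retinoic acid receptor, had a log2 fold change of 0.55 and the dopamine receptor gene Drd1 of 0.64. Lef1, a transcription factor of thalamic neurons, fell by 0.40 on the log2 scale. With equal numbers per cluster these striatal and thalamic calls were lost, and Lef1 turned to 0.12.

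Genes of synaptic transmission had calls in both directions, to be read against the 1.19% and 1.31% over all genes. Of 24 glutamate receptor subunit genes, 4 were higher and 2 lower in neuron-like nuclei, and of 15 GABA-A subunit genes 1 was higher (Gabra6, the granule cell subunit). Grm2, a presynaptic metabotropic glutamate receptor, had 21.3 and 21.5 CPM in fresh and 13.0 and 13.4 CPM in frozen neuron-like nuclei, or -0.69 on the log2 scale with edgeR's adjusted p at 0.00319. It was -0.53 and still called with equal numbers per cluster.

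Of 28 genes of synaptic vesicle release, 2 were higher and 4 lower. Syt2, a calcium sensor for fast release, had 57.2 and 56.0 CPM in fresh and 94.1 and 103 CPM in frozen neuron-like nuclei, or 0.81 on the log2 scale with edgeR's adjusted p at 3.00e-05. The vesicle protein gene Syp fell by 0.31 on the log2 scale. Both were called with equal numbers per cluster as well.

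Of 72 potassium channel genes 2 were higher and 5 lower in neuron-like nuclei. Kcnip1, a partner of A-type potassium channels, had opposite signs in the tests: its log2 fold change was 0.61 over all nuclei and -0.38 in neuron-like nuclei, and both passed. In neuron-like nuclei it had 173 and 201 CPM in fresh and 144 and 144 CPM in frozen brain.

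Some markers of other cell types also moved in the neuron-like nuclei. The oligodendrocyte list rose from 151 and 155 CPM in fresh brain to 191 and 189 CPM in frozen brain, with 2 of 7 members called. Of the 7, 5 had positive values and 2 negative ones. A longer list of myelin genes summed to 647 and 657 CPM in fresh and to 649 and 637 CPM in frozen brain, so these groups overlapped. Of its 17 members tested 11 had positive and 6 negative values, and 1 was called higher. The astrocyte list summed to 880 and 917 CPM in fresh and to 912 and 844 CPM in frozen brain. Of its 8 members 6 had positive values and 2 negative ones, with a median log2 fold change of 0.24. Neither edgeR nor DESeq2 called any, and 5 had an unadjusted p under 0.05 in edgeR. A longer list of astrocyte genes had 17 of 22 values positive, with a median of 0.18. In edgeR 1 of the 22 was called higher and 8 had an unadjusted p under 0.05. The fibroblast and meningeal list had 22.7 and 29.9 CPM in fresh and 42.9 and 32.0 CPM in frozen brain, with Dcn the 1 called of 5 tested, named after its value was seen. The part of these in the neuron results was not tested.

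Lists of activity and stress genes were set against the 2.06% of genes higher and 1.76% lower over all genes, so that few calls among lists this short are no result about them. In all nuclei 0 of 23 immediate early genes, which report recent neuronal activity, passed in edgeR or DESeq2, with a median log2 fold change of -0.17, 20 negative values and 3 genes at an unadjusted p under 0.05. Nr4a1 stood at 17.2 and 17.3 CPM in fresh and 17.4 and 14.1 CPM in frozen brain, so the groups overlapped. Npas4, an activity-dependent transcription factor, had 4.54 and 4.16 CPM in fresh and 2.65 and 2.79 CPM in frozen brain, with an unadjusted p of 0.0063 and an adjusted p of 0.101 in edgeR. Junb was at an adjusted p of 0.0516 with a log2 fold change of -1.40, from a level below 2 CPM.

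Neither edgeR nor DESeq2 called any of 19 circadian clock genes, 4 cold-inducible RNA-binding genes, 9 interferon-responsive genes or 13 p53 and DNA damage genes. In edgeR, 4, 1, 0 and 2 of these had an unadjusted p under 0.05. All 4 cold-inducible genes had negative values. Of 17 heat shock chaperones 1 was higher (Hspa4l, log2 fold change 0.31), a call lost with equal numbers per cluster (edgeR's adjusted p 0.134). Of 26 hypoxia and glycolysis genes 1 was higher (Aldoc, 0.97), and that call was lost with equal numbers per cluster. Zbtb16, a transcription factor that glucocorticoids induce, was the 1 lower gene of 13 on its list, at -0.36. Of 19 genes of the unfolded protein and integrated stress response 0 passed in all nuclei in edgeR or DESeq2 (4 at an unadjusted p under 0.05 in edgeR), and 16 had negative values. Hspa5, the chaperone of the endoplasmic reticulum, was lower in neuron-like nuclei at -0.34, which equal numbers per cluster did not keep (edgeR's adjusted p 0.259).

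Of long RNAs that stay in the nucleus 16 were tested, with log2 fold changes from -0.46 to 0.29 and a median of -0.02. Malat1, the most abundant of them, had 4759 and 4839 CPM in fresh and 5328 and 5053 CPM in frozen brain, a difference of 0.11 on the log2 scale that did not pass (edgeR's adjusted p 0.278). Meg3, at -0.10, did not pass either. Of the 16, Snhg11 was higher by 0.29 and Miat and Gm26917 were lower, at -0.30 and -0.46. An unadjusted p under 0.05 in edgeR was found for 8 of the 16. All genes annotated as long intergenic noncoding RNA summed to 51337 and 47829 CPM in fresh and 67850 and 56356 CPM in frozen brain. Of 705 tested, 21 were higher and 7 lower. Their median log2 fold change was 0.06 and 42.1% were negative, so the sums are not those of a typical gene. Ribosomal protein genes had 0 of 79 and replication-dependent histone genes 0 of 11 members called by edgeR or DESeq2, with 6 and 2 at an unadjusted p under 0.05 in edgeR.

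In glia-like nuclei, 57 and 93 in fresh and 50 and 56 in frozen brain, 17 of 9080 genes were higher and 3 lower. These are 0.187% and 0.033% of those tested. Of 13 mitochondrial genes tested, 9 were higher and 0 lower, with a median log2 fold change of 1.88. The mitochondrial share was 0.776% and 0.568% in fresh and 1.74% and 1.90% in frozen astrocyte-like nuclei, and 0.484% and 0.358% in fresh and 2.41% and 1.66% in frozen oligodendrocyte-like nuclei. The oligodendrocyte-like cluster had the highest ratio of means among the 18 clusters.

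The other 8 genes higher in glia-like nuclei were Kcnmb2, Cntnap3, Tmem132c, 6330411D24Rik, Btbd11, Dach1, Gm26561 and Kcnc2, of which the last 5 had log2 fold changes of 1.51, 1.50, 1.09, 1.10 and 0.97 and are named because the count is complete, after their values were seen. Kcnmb2, a subunit of large-conductance calcium-activated potassium channels, had 31.6 and 46.2 CPM in fresh and 165 and 158 CPM in frozen glia-like nuclei, or 2.00 on the log2 scale with edgeR's adjusted p at 0.00163. Cntnap3, an adhesion protein of the neurexin superfamily, and Tmem132c had 2.28 and 1.89. Both frozen libraries were above both fresh libraries for all 8. All 20 genes called in glia-like nuclei were without overlap, and so were 3706 of all 9080 tested. Few nuclei carried the Kcnmb2 UFIs: in the oligodendrocyte-like cluster 6 of 31 and 12 of 37 frozen nuclei had any, and the top 3 nuclei held 90.5% and 77.9% of them. In astrocyte-like nuclei the Kcnmb2 groups overlapped, at 12.7 and 52.3 CPM in fresh and 20.7 and 23.8 CPM in frozen brain. The 14 and 28 Cntnap3 UFIs of frozen oligodendrocyte-like nuclei lay in 3 of 31 and 8 of 37 nuclei. The top 3 nuclei held 100% and 67.9% of them. Tmem132c UFIs lay in 6 of 31 and 11 of 37 frozen oligodendrocyte-like nuclei, with 85.7% and 80% of them in the top 3. The general neuron marker list stood at 13614 and 16051 CPM in fresh and 18891 and 16101 CPM in frozen glia-like nuclei, with 9 of 10 values positive, 0 called by edgeR or DESeq2 and 1 at an unadjusted p under 0.05 in edgeR. The inhibitory neuron list stood at 1375 and 1370 CPM in fresh and 2233 and 1585 CPM in frozen glia-like nuclei, with a median log2 fold change of 0.86, 0 of 6 called by edgeR or DESeq2 and 4 at an unadjusted p under 0.05 in edgeR. Kcnmb2 was also among the 10 leading genes of the unnamed Sst cluster. The part of neuronal RNA in these calls was not tested. With equal numbers per cluster, at 50 nuclei per library, Tmem132c passed (adjusted p = 0.0427 in edgeR). The other 7 did not, with Kcnmb2 at 0.258 and Cntnap3 at 0.0567. The log2 fold changes of Tmem132c, Kcnmb2 and Cntnap3 in that draw were 1.69, 1.34 and 2.31.

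The 3 lower genes were Gli3, Htra1 and Lix1. Gli3, a transcription factor of the hedgehog pathway expressed in astrocytes, had 225 and 223 CPM in fresh and 83.4 and 113 CPM in frozen glia-like nuclei, or -1.16 on the log2 scale with edgeR's adjusted p at 0.0322. Htra1, a secreted protease, had 235 and 172 CPM in fresh and 55.6 and 79.8 CPM in frozen glia-like nuclei, a log2 fold change of -1.54. Lix1 went from 48.2 and 43.8 CPM to 13.0 and 8.29 CPM, a log2 fold change of -2.17. With equal numbers per cluster, at 50 nuclei per library, Gli3, Htra1 and Lix1 had -0.85, -1.43 and -2.03. All 3 calls were lost with equal numbers per cluster and in 2 of the 4 fits that leave out 1 library.

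The make-up of the glia-like nuclei moved with these genes. Astrocyte-like nuclei were 25 of 57 and 39 of 93 in fresh brain and 19 of 50 and 19 of 56 in frozen brain. The astrocyte marker list summed to 5340 and 4566 CPM in fresh and to 3191 and 3082 CPM in frozen glia-like nuclei. Of its 8 members edgeR called 0 and DESeq2 1, and 7 had an unadjusted p under 0.05 in edgeR. The oligodendrocyte list also had negative values in 7 of 7 members, at 5286 and 3496 CPM in fresh and 3610 and 3381 CPM in frozen glia-like nuclei with a median of -0.43, and 0 were called by edgeR or DESeq2 with 2 at an unadjusted p under 0.05 in edgeR. Of 17 myelin genes 17 had negative values, with a median of -0.37, 0 called by edgeR or DESeq2 and 5 at an unadjusted p under 0.05 in edgeR. The part of this shift in the lower genes was not tested. Within the astrocyte-like cluster alone Gli3 stood at 515 and 510 CPM in fresh and at 170 and 304 CPM in frozen brain, and Htra1 at 517 and 376 CPM against 104 and 191 CPM. Both frozen libraries were below both fresh libraries there too, over 25 and 39 against 19 and 19 nuclei.

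The test of the difference between the classes, glia-like minus neuron-like, called 1 of 13564 genes, 0.00737%. This was Gli3, with a value of -1.94 ± 0.19 (SE, adjusted p = 0.00669 in edgeR). Its log2 fold change was 0.79 in neuron-like nuclei and -1.16 in glia-like nuclei. The call was lost with equal numbers per cluster, where the difference was -1.22 (edgeR's adjusted p 0.331), and without the frozen library of replicate 2 (edgeR's adjusted p 0.154). Btbd11, with a difference of 1.58 (adjusted p = 0.0524 in edgeR), and Tmem132c, with 1.70 (0.0752), came next and did not pass. Mitochondrial genes were higher in both classes, and of the 21 tested here 0 passed edgeR's test of the difference, with 1 at an unadjusted p under 0.05.

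**Figure D5:**
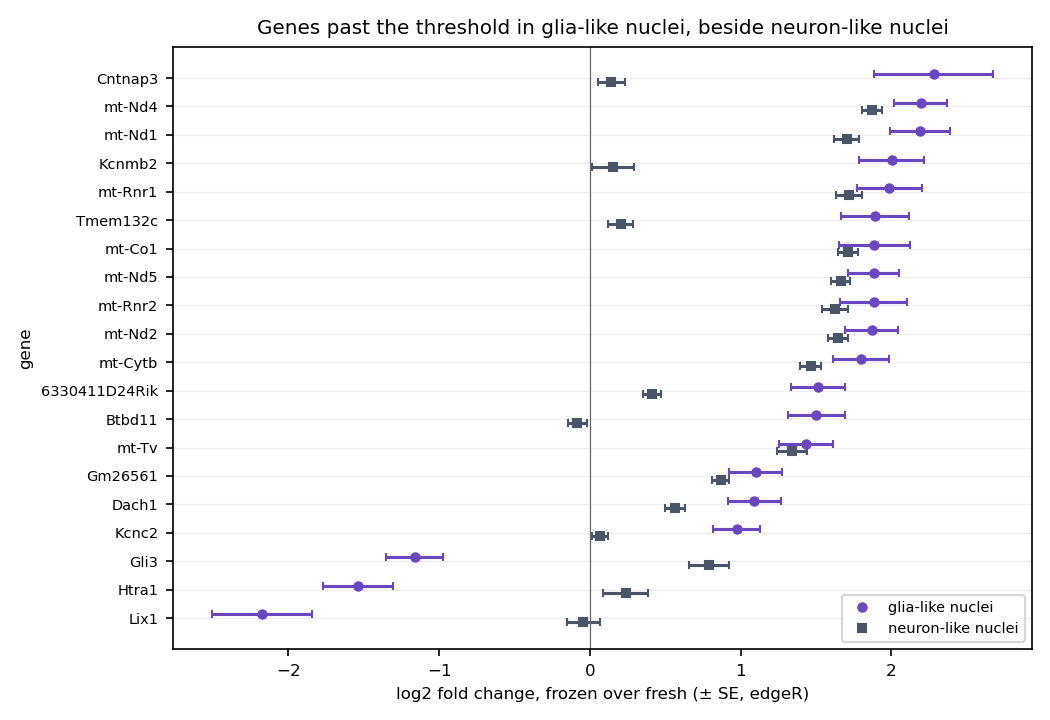
Log2 fold change of frozen over fresh brain with its SE for the 20 genes that passed in glia-like nuclei (circles), beside their values in neuron-like nuclei (squares). The 9 mitochondrial genes are raised in both classes, whereas Gli3 lies at -1.16 in glia-like and at 0.79 in neuron-like nuclei.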

How the data were processed

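The authors deposited whole-number UFI counts per gene and nucleus, which are not normalized. Their methods describe poly-A trimming, alignment with STAR, keeping of uniquely mapped reads only, assignment to genes with featureCounts and UFI counting with UMI-tools. The submitters' notes list GRCm38 and mm10 beside a human build without saying which was used where. Gene coordinates are from GENCODE M21 (GRCm38); 15954 of 16493 symbols tested matched, and sequences are those of its transcripts. The files had 0 columns of other samples.

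Counts were summed per library over all, neuron-like and glia-like nuclei, filtered with filterByExpr, scaled by TMM (CPM; shares of nuclei's UFIs and of snRNA sums use raw totals) and tested with edgeR 4.0.16 (glmQLFTest, Benjamini-Hochberg, threshold 0.05, two-sided). The class difference was fitted over neuron and glia sums with the library as a block. DESeq2 1.42.0 was an alternative. Nuclei were clustered with scanpy 1.11.5 (2000 variable genes, 40 components, 10 neighbours, Leiden resolution 0.4, no Harmony). Scrublet marked 18 of 3800 nuclei, and these were kept. Whether it missed doublets was not tested. Exact permutation tests covered 6 splits. Intervals are Clopper-Pearson at 95% and, like the limits from 3 counts, cover counting error only.

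The members and gene lists were chosen with earlier results of these data known. Named genes are, for each comparison, the 8 higher and 8 lower ones of largest fold change that were called at 10 CPM or more without overlap of the groups, up to 3 of each gene list by unadjusted p, and any gene of a few short lists; directions with fewer than 4 such genes were filled to 4 by unadjusted p. Certain genes and sequences within this rule are left unreported. A difference from the study may come from rebuilt cluster names. Replicate numbers did not pair the libraries: deviations of same-numbered libraries had a correlation of 0.045 over 16493 genes. On simulated data with 200 genes changed by a log2 of 1.5, edgeR recovered 199 in all nuclei (12 of 211 calls false), 199 in neurons (3 of 202), 139 in glia (4 of 143) and 13 in the class difference (1 of 14). Dispersions were set to 0.01 for all nuclei and neurons and to 0.05 otherwise, and only well-counted genes were changed. The real calls in all nuclei had a median absolute log2 fold change of 0.41. Recovery of changes that small, or of low-count genes, was not tested.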

Additional observations from a re-analysis of the deposited data

Results flagged for a closer look

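Gli3 was flagged because its storage difference was not the same in the 2 classes of nuclei by a test of that difference. Glia-like minus neuron-like nuclei gave -1.94 on the log2 scale. The preindexed frozen libraries, which the comparison does not use, were flagged for a mitochondrial share of 0.772% (replicate 1) and 0.769% (replicate 2) of UFIs, above the 0.595% of the preindexed fresh library.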

How the results depend on the processing

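Depth limits the comparison, since both frozen libraries were shallower than both fresh libraries, and with 2 libraries a group no permutation p can reach 0.05. Counts of calls moved by more than 1.5 times as follows, and the causes were not tested unless the setting itself removes genes or nuclei. DESeq2 gave 388 calls in all, 246 in neuron-like and 40 in glia-like nuclei and 10 for the class difference, with 14 and 8 snRNA genes lower in all and neuron-like nuclei. Without a filter on low counts the calls were 1330, 1118, 191 and 93, and the snRNA genes 74 and 67. With the same number of nuclei per cluster they were 202, 180, 12 and 0, with 14 snRNA genes in all nuclei. Of those 202 calls 164 were among the 630, and of the 180 calls 152 were among the 392. Without the uneven clusters, chosen after seeing the data, there were 316 calls in all nuclei, 18 snRNA genes and 3 class differences. In nuclei of 10000 to 20000 UFIs, also chosen after seeing the data, calls were 57, 89 and 12, mitochondrial genes higher 10, 10 and 1, and snRNA genes lower 5 and 6. Thinning to the shallowest library gave 37 calls in glia, 17 snRNA genes in all nuclei and 3 class differences. The class difference had 6 calls with 20 principal components, 2 at resolution 1.2 and 2 with upper-quartile scaling.

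The replicate block gave 953 calls in all nuclei and 785 in neuron-like nuclei, with 47 and 39 snRNA genes lower, although the numbers do not pair the libraries. Leaving out 1 library gave 579 to 850 calls in all, 401 to 926 in neuron-like and 9 to 205 in glia-like nuclei and 0 to 29 for the class difference, where a lone library is assumed to vary like the others. Mitochondrial genes higher then numbered 13 to 15 in all, 14 to 15 in neuron-like and 7 to 11 in glia-like nuclei, and snRNA genes lower 17 to 46 in all and 15 to 38 in neuron-like nuclei. Directions turned with the same number of nuclei per cluster for 9630028H03Rik (-0.47), Arhgef33 (-0.083), Col18a1 (-0.041) and Gm38048 (-0.24) in all and for Prdm16 (0.12) in neuron-like nuclei. That draw kept 1 nucleus of the Car8 cluster per library and 0 of the Prdm16 cluster, so these turns say little. Without the uneven clusters, which include both, directions turned for Arhgef33 (-0.18), Col18a1 (-0.48) and Prdm16 (0.16). The neuron share turned to 0.705 percentage points higher in frozen brain at resolution 1.2, and the glia share ranged from -0.082 to 1.37 with 1 library left out. The Gli3 class difference was -1.22 with equal numbers per cluster, the smallest size over the alternatives run, and lost the call there and without the frozen library of replicate 2.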

Other observations

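Vascular and meningeal marker lists had few calls, in nuclei too few to be compared as classes. Of 6 pericyte and smooth muscle markers tested in all nuclei 2 were lower in frozen brain, against 1.76% of all genes tested. These were Pdgfrb, the receptor that pericytes need, with a log2 fold change of -0.86 (edgeR's adjusted p 0.0348), and the pericyte gene Atp13a5, with -1.31 (0.0200). The list summed to 25.6 and 34.7 CPM in fresh and to 16.5 and 18.9 CPM in frozen brain. Endothelial markers summed to 31.9 and 43.6 CPM in fresh and to 30.6 and 31.7 CPM in frozen brain, with 0 of 7 called by edgeR or DESeq2 and 1 at an unadjusted p under 0.05 in edgeR. Fibroblast and meningeal markers summed to 29.4 and 40.7 CPM in fresh and to 45.9 and 37.8 CPM in frozen brain. Those groups overlapped, and Dcn was the 1 called of 7 tested, higher in frozen brain.

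Among neurofilament genes Nefh and Nefl, whose proteins form the axonal cytoskeleton, were the 2 called members of a list of 27 cytoskeletal and cytoplasm-rich neuronal messenger RNAs in all nuclei. Nefl had 29.0 and 26.3 CPM in fresh and 35.3 and 36.1 CPM in frozen brain, a log2 difference of 0.38, and Nefh had 0.72. The median of the list was 0.02. Myelin genes had 0 of 18 members called in all nuclei by edgeR or DESeq2, with 3 at an unadjusted p under 0.05 in edgeR.

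Mir6236 was also lower, at 113 and 114 CPM in fresh and 63.1 and 62.5 CPM in frozen brain, a log2 difference of -0.85. It was chosen after its values had been seen.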
